A study of Mus musculus with 8 samples.

Results

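Maturation of the wild-type mouse stomach between 3 and 8 weeks of age was described from 4 of the 8 RNA-seq libraries of the series, chosen by genotype and age as the labels give them. They were 2 stomach libraries from C57BL/6J wild-type mice at 8 weeks and 2 at 3 weeks. The other 4 libraries came from Lgals8-null mice, which lack the gene for the glycan-binding protein galectin-8, with 2 at 8 weeks and 2 at 3 weeks. These entered the fit to share its estimate of spread, and their own comparison of ages is set beside the wild-type one at the end. The labels name the tissue as stomach without the region taken, and leave open whether both libraries of a group came from different mice. The p-values below therefore speak only of the scatter between these libraries, which may be technical. The series title asks about the part of galectin-8 in stomach maturation.

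The glandular stomach is lined by gastric units in which chief cells secrete digestive zymogens, parietal cells secrete acid through a proton pump, surface and neck cells secrete mucus, and endocrine cells release hormones. In mice the proximal stomach, the forestomach, carries a squamous epithelium. Mice are weaned around the start of this interval, when the diet changes from fat-rich milk to solid food, while the underlying connective tissue and muscle go on growing.

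Polyadenylated RNA was read from both ends, and the authors deposited raw counts per gene. Library totals were 58851837 and 80686621 counts at 8 weeks and 77758350 and 70988676 at 3 weeks in wild type, and 61800144 to 69150262 in Lgals8-null libraries. Levels are CPM, counts set to a common library size by the trimmed mean of M-values (TMM), so they are relative to the bulk of genes and not shares of a library. Transcripts of squamous forestomach varied between replicates of both ages, with the summed CPM of 20 marker genes at 134 and 1327 at 8 weeks and at 1021 and 108 at 3 weeks. None of these 20 genes was called for age, and both ages had 1 library with much and 1 with little squamous RNA. Gast, the gastrin gene of the gastric antrum, had 2 and 0 counts at 8 weeks, against 1341 and 336 counts at 3 weeks, and was not called (edgeR adjusted p 0.15). Its libraries did not overlap, while the 3-week pair differed by more than a factor of 3. In Lgals8-null libraries Gast had 1319 and 14 counts at 8 weeks, against 1756 and 568 counts at 3 weeks. How much antrum each library held, and the part of this in the age differences below, was not tested.

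A few secretory genes held a larger share of the RNA at 8 weeks. At 8 weeks 33 and 28 genes held 50% of all counts, against 445 and 423 genes at 3 weeks. The 10 most abundant genes of each library took 44.2% and 45.1% of counts at 8 weeks and 22.9% and 24.3% at 3 weeks. Pgc alone, the gene for pepsinogen C, took 23.3% and 23.6% of counts at 8 weeks, against 10.1% and 10.1% at 3 weeks. The ages did not overlap in any of these shares. Every other transcript is diluted by such a shift when libraries are compared by their totals, so the scaling matters: with library totals in place of TMM the median log2 fold change of all genes moved by -0.56. A small increase under TMM can therefore turn to a decrease under library totals. Called genes named by a fixed rule that did so, and lists with several calls, all of them higher, are given with that value or marked below. Some other lists turned too, such as the glucocorticoid response, with a median of 0.105 under TMM and -0.45 under library totals.

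**Figure D1:**
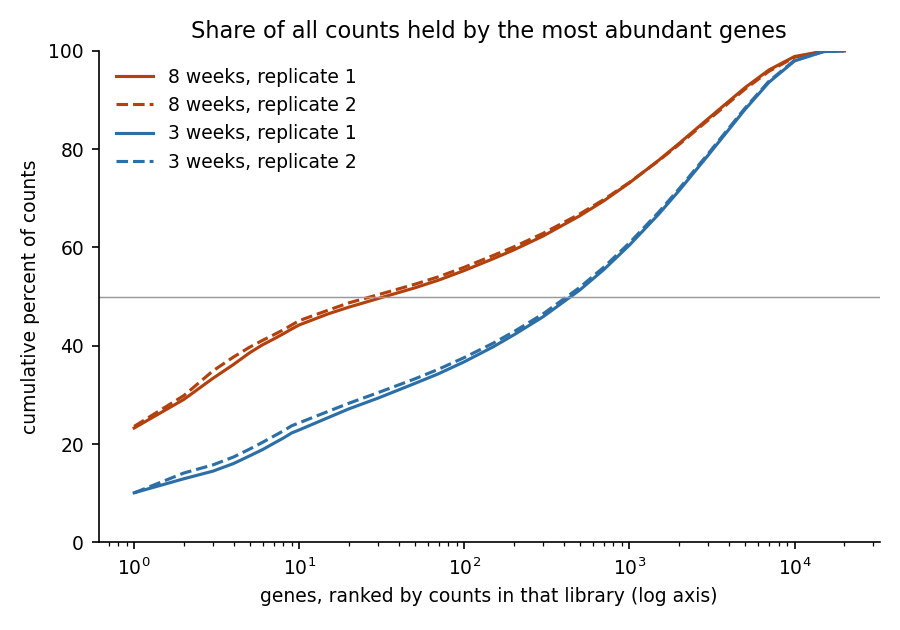
Cumulative percent of counts (y axis) against the number of genes ranked by their counts in that library (log x axis), with 1 line per wild-type library. Both 8-week lines cross 50% at 33 and 28 genes, and both 3-week lines at 445 and 423 genes.

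Age was tested with edgeR's quasi-likelihood test over 19647 genes, with Benjamini-Hochberg adjustment and a threshold of 0.05, and a gene past it is termed called. At 8 weeks 1359 genes were called higher (6.92% of those tested) and 1455 lower (7.41%), together 2814 (14.3%). The same fit found 5487 genes at an unadjusted p under 0.05 (27.9%). Both 8-week libraries stood above both 3-week libraries in 28% of genes tested and below both in 31.6%. All 2814 called genes moved the same way in the pair of libraries with much squamous RNA (8-week replicate 2 over 3-week replicate 1) and in the pair with little, as did 13719 of all 19647 genes. The calls were drawn from these same libraries, so the agreement largely follows from the calling and is no separate check. The count depended on the libraries in the fit. It was 382 without 3-week replicate 1, 397 without 3-week replicate 2, 1448 without 8-week replicate 1 and 1685 without 8-week replicate 2. Of 142 called genes that the naming rule gave and that are named below, all kept their direction in each of 8 fits that left out 1 library, and 73 stayed called in all 8.

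Gene lists for cell types and pathways are described by how many members were called and by their median log2 fold change, beside -0.02 for all genes tested. By share of their members, the lists furthest called lower held structural proteins of the extracellular matrix. The largest shares called higher were in the lists of oxidative phosphorylation, chief cell, parietal cell and surface mucous cell, closely followed by the pancreatic acinar list.

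**Figure D2:**
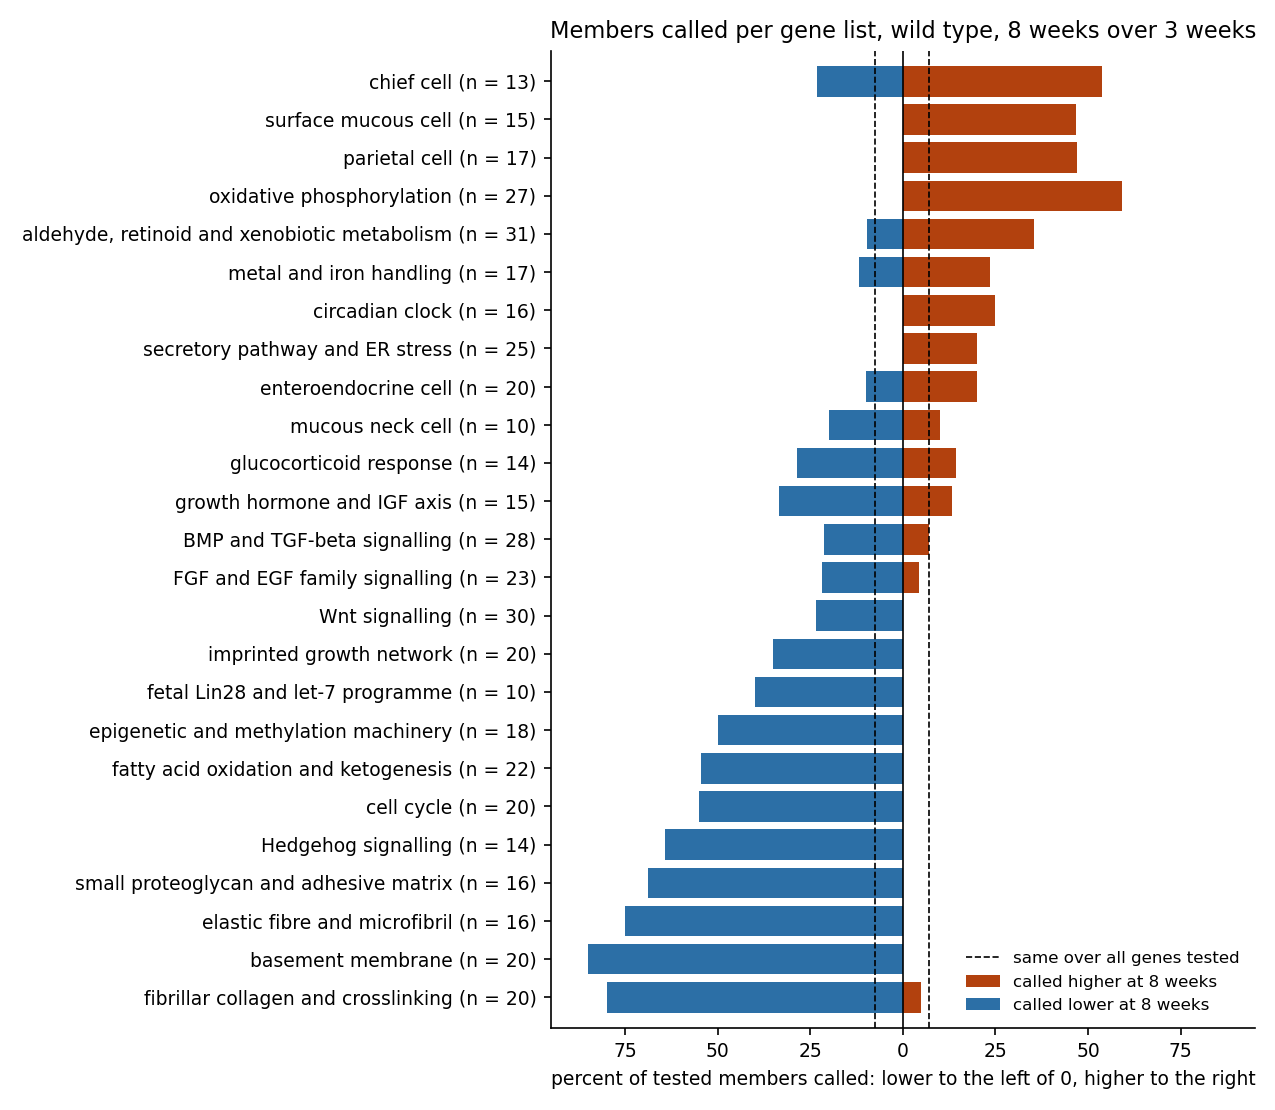
Percent of the tested members of 25 gene lists called higher (bars to the right of 0) or lower (bars to the left) at 8 weeks than at 3 weeks in wild type, with the number tested in brackets. Dashed lines give the same over all genes tested, 6.92% higher and 7.41% lower, and the 4 matrix lists at the bottom reach furthest to the left.

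Digestive secretions of the chief cell were exchanged rather than uniformly raised. Of 13 chief cell genes tested, 7 were called higher and 3 lower (median 0.80), and only 1 lower without 8-week replicate 1 or either 3-week library. Pgc (ENSMUSG00000023987, chromosome 17, 47726842 to 47734482, plus strand, GRCm38) had 307300 and 304300 CPM at 8 weeks, against 88650 and 89880 CPM at 3 weeks. It was 3.43-fold higher (log2 fold change 1.78, SE 0.15, edgeR adjusted p 0.00094). Clps, which encodes colipase, the cofactor that holds lipase on fat droplets, had 76920 and 80860 CPM at 8 weeks, against 11350 and 12380 CPM at 3 weeks. It was 6.65-fold higher (log2 fold change 2.73, SE 0.15, edgeR adjusted p 0.00025). Pla2g1b, a secreted phospholipase that digests dietary phospholipid, had 56600 and 64740 CPM at 8 weeks, against 13600 and 14210 CPM at 3 weeks, and was 4.36-fold higher (log2 fold change 2.12, SE 0.20, edgeR adjusted p 0.0013). In all of these genes both 8-week libraries stood above both 3-week libraries, and the replicates lay close together.

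Chia1 (ENSMUSG00000062778, chromosome 3, 106113229 to 106132120, plus strand), which encodes an acidic chitinase that cleaves the chitin of insects and fungi, had 37270 and 36400 CPM at 8 weeks, against 1425 and 1378 CPM at 3 weeks. It was 26.3-fold higher (log2 fold change 4.72, SE 0.25, edgeR adjusted p 0.00024). Gif, the gene for intrinsic factor, which carries vitamin B12, had 4334 and 4398 CPM at 8 weeks, against 2267 and 2511 CPM at 3 weeks and was 1.83-fold higher (log2 fold change 0.87, SE 0.16, edgeR adjusted p 0.014). Gif lost its call without any 1 of the 4 wild-type libraries (adjusted p up to 0.14), whereas Pgc, Clps, Pla2g1b and Chia1 were called in all 8 fits that left out 1 library. Lipf, the gastric lipase gene, had 0 counts in all 4 wild-type libraries.

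Cym (ENSMUSG00000046213, chromosome 3, 107211293 to 107221732, minus strand) encodes chymosin, the protease that clots milk in the stomach of young mammals. It had 52.4 and 12 CPM at 8 weeks, against 25000 and 36060 CPM at 3 weeks, and was 952-fold lower (log2 fold change -9.89, SE 1.74, edgeR adjusted p 0.027). Both 8-week libraries lay far below both 3-week libraries, but they differed from each other by more than a factor of 4. Cym lost its call without any 1 of the 4 wild-type libraries or without 3-week Lgals8-null replicate 2 (adjusted p up to 0.11), and its log2 fold change ran between -11.31 and -9.19 in those fits. Pga5, another pepsinogen gene, had 149 and 141 CPM at 8 weeks, against 887 and 1065 CPM at 3 weeks. Its libraries did not overlap, it was 6.74-fold lower (log2 fold change -2.75, SE 0.21, edgeR adjusted p 0.00083), and it was called in all 8 of those fits. Per kilobase of annotated exon, the highest mean levels at 8 weeks among the most abundant genes were 220300 CPM for Pgc, 129100 for Clps and 85090 for Pla2g1b. At 3 weeks these genes had 64310, 19420 and 19500 CPM per kilobase, and Cym stood second to Pgc with 24700.

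The promoters of 4 abundant secreted products that hold a TATA box are shown, because genes that rose and a gene that fell carry the same core element. The 80 bases before the start site that RefSeq annotates are given 5′ to 3′ on the gene's strand (GRCm38.p6), with TATAAA, the core of a TATA box, in capitals.
Pgc: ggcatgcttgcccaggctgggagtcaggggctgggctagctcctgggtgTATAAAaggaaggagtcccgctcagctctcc
Chia1: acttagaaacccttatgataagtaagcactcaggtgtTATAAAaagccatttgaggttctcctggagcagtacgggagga
Gkn2: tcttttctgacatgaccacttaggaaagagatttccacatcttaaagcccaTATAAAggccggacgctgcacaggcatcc
Cym: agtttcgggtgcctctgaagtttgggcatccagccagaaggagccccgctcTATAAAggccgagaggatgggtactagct
These stretches are chr17:47726762-47726841 (plus strand), chr3:106113302-106113381 (plus), chr6:87373285-87373364 (plus) and chr3:107221733-107221812 (minus). The element begins 31 bases before the start site in Pgc, 43 in Chia1, 29 in Gkn2 and 29 in Cym. The gene positions given with gene IDs are those of GENCODE M21, and in Chia1 the RefSeq start lies downstream of the GENCODE start, so that its stretch falls inside the gene as placed above. Searched on both strands of the 250 bases before the start, TATAAA was found in 3 of 12 promoters of the 11 chief cell genes in the table, in 3 of 9 surface mucous promoters, in 2 of 18 parietal cell promoters and in 2 of 13 promoters of the fibrillar collagen list. It was found in 12.4% of all 32851 promoters. These matches describe the letters only.

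Trypsinogen genes, which encode precursors of the protease trypsin, were higher at 8 weeks. Try10 had 40.1 and 57.6 CPM at 8 weeks, against 0.79 and 0.678 CPM at 3 weeks and was 66.3-fold higher (log2 fold change 6.05, SE 0.29, edgeR adjusted p 0.00024). Try4 had 70.7 and 95.3 CPM at 8 weeks, against 4.57 and 3.76 CPM at 3 weeks and was 19.9-fold higher (log2 fold change 4.32, SE 0.26, edgeR adjusted p 0.00045). Try5, Prss1 and Prss2 were called higher at much lower levels. Try5, the most abundant of them, had 2.47 and 2.57 CPM at 8 weeks, against 0.305 and 0.0503 CPM at 3 weeks. The 8-week and 3-week libraries did not overlap for any of these genes. Try5 and Prss1 lost their call without either 8-week library or 3-week replicate 2, and Prss2 without any 1 of the 4 wild-type libraries (adjusted p up to 0.080, 0.10 and 0.17). These genes are near-identical copies on chromosome 6, so the counts of each are uncertain. Of 13 tested genes of the pancreatic acinar list 6 were called higher, but only 1 without 8-week replicate 1 or 3-week replicate 2 and 3 without 8-week replicate 2 or 3-week replicate 1. Beside the trypsinogens these were Cel, a lipase, with 47.4 and 34.9 CPM at 8 weeks, against 24.2 and 22.9 CPM at 3 weeks, and Sycn, a zymogen granule protein, with 15.9 and 10.9 CPM at 8 weeks, against 7.47 and 6.21 CPM at 3 weeks. Of the members not called, Pnliprp1 lay between 71.9 and 106 CPM, Cela1 between 22.1 and 37.1 CPM and Cpb1 between 1.53 and 2.16 CPM, while Pnlip, Ctrb1, Cela2a and Ptf1a stayed under 1 CPM in all 4 libraries. The summed CPM of that list was 282 and 273 at 8 weeks, against 149 and 147 at 3 weeks.

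Acid secretion genes were higher by smaller factors. Of 17 parietal cell genes tested, 8 were called higher and none lower (median 0.36, but -0.20 under library totals). The count was 3 without 8-week replicate 1 and 1 without either 3-week library. Atp4b, the beta subunit of the proton pump, had 8047 and 6613 CPM at 8 weeks, against 4346 and 4374 CPM at 3 weeks and was 1.68-fold higher (log2 fold change 0.75, SE 0.14, edgeR adjusted p 0.015). Its catalytic subunit Atp4a had 15390 and 13080 CPM at 8 weeks, against 11040 and 11100 CPM at 3 weeks, a log2 fold change of 0.36 (SE 0.13, adjusted p 0.12) that did not pass and that turned to -0.20 under library totals. Esrrb, a gene for an orphan nuclear receptor, had 19.8 and 12.1 CPM at 8 weeks, against 2.46 and 2.25 CPM at 3 weeks and was 6.76-fold higher (log2 fold change 2.76, SE 0.31, edgeR adjusted p 0.0028). Both subunits of the pump and Esrrb had their 8-week libraries above their 3-week libraries.

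Among the transporters of the parietal cell, Slc4a2, the basolateral chloride and bicarbonate exchanger, was higher at 8 weeks by 1.64-fold (edgeR adjusted p 0.013). Kcne2, a subunit of the potassium channel that feeds the pump, and Slc26a9, an anion transporter, were higher by 1.43-fold (edgeR adjusted p 0.013) and 1.39-fold (edgeR adjusted p 0.011) under TMM, upper-quartile and median-of-ratios scaling, with both signs turning under library totals. Esrrb was called in all 8 fits that left out 1 library. Atp4b and Slc4a2 lost their call without 8-week replicate 1 or either 3-week library, and Slc26a9 without either 3-week library (adjusted p up to 0.13, 0.12 and 0.11). Kcne2 did so without 8-week replicate 2 or either 3-week library (up to 0.11). Fewer or more cells of a type and less or more RNA per cell cannot be told apart in whole tissue.

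Several products of the surface mucous cell rose. Of 15 genes tested, 7 were called higher and none lower (median 0.50, but -0.06 under library totals). Without either 3-week library 4 were called. Muc5ac, the main gel-forming mucin of the gastric surface, had 3624 and 3856 CPM at 8 weeks, against 1014 and 778 CPM at 3 weeks and was 4.17-fold higher (log2 fold change 2.06, SE 0.17, edgeR adjusted p 0.00083). Psca, a membrane-anchored surface antigen, had 13100 and 12790 CPM at 8 weeks, against 4417 and 4451 CPM at 3 weeks and was 2.92-fold higher (log2 fold change 1.55, SE 0.09, edgeR adjusted p 0.00033). Gkn1 and Gkn2 encode gastrokines of the mucous layer. Gkn1 had 31180 and 25520 CPM at 8 weeks, against 13660 and 14420 CPM at 3 weeks and Gkn2 21790 and 18270 CPM at 8 weeks, against 9410 and 9367 CPM at 3 weeks. They were higher by 2.02-fold (edgeR adjusted p 0.0046) and 2.13-fold (edgeR adjusted p 0.0024). Tff1, a trefoil peptide secreted with mucin, was higher by 1.9-fold (edgeR adjusted p 0.0030). The ages did not overlap in any of these genes, which were called in all 8 fits that left out 1 library except Gkn1, lost without either 3-week library (adjusted p up to 0.071).

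Mucous neck genes moved in both directions, with 1 of 10 called higher and 2 lower (median -0.46). Tff2, the trefoil peptide of the neck cell, had 971 and 1001 CPM at 8 weeks, against 661 and 601 CPM at 3 weeks and was 1.56-fold higher (log2 fold change 0.64, SE 0.12, edgeR adjusted p 0.013). Muc6, its mucin, had 497 and 789 CPM at 8 weeks, against 356 and 194 CPM at 3 weeks, a log2 fold change of 1.23 that did not pass (adjusted p 0.16). Dmbt1, a scavenger-receptor glycoprotein of mucosal secretions, had 37.6 and 30.9 CPM at 8 weeks, against 246 and 152 CPM at 3 weeks and was 5.81-fold lower (log2 fold change -2.54, SE 0.36, edgeR adjusted p 0.011). Cftr, the chloride channel, had 0.269 and 0.623 CPM at 8 weeks, against 2.18 and 1.76 CPM at 3 weeks and was lower by 4.34-fold (edgeR adjusted p 0.032). These calls were fragile: Tff2 lost its call without any 1 of the 4 wild-type libraries, Dmbt1 without either 8-week library or 3-week replicate 1, and Cftr without 8-week replicate 1, either 3-week library or either 3-week Lgals8-null library (adjusted p up to 0.13, 0.062 and 0.18). The log2 fold change of Cftr was -2.86 without 8-week replicate 2.

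Bpifb1, Muc5b and Scnn1b, which were among the largest decreases and form no list together, were much lower at 8 weeks. Bpifb1 (ENSMUSG00000027485, chromosome 2, 154190818 to 154220369, plus strand) encodes a secreted protein of the family of bactericidal/permeability-increasing proteins. It had 54.3 and 81 CPM at 8 weeks, against 2356 and 2791 CPM at 3 weeks, and was 38-fold lower (log2 fold change -5.25, SE 0.40, edgeR adjusted p 0.0015). Muc5b (ENSMUSG00000066108, chromosome 7, 141839070 to 141873084, plus strand), a gel-forming mucin best known from airways and glands, had 1.17 and 3.04 CPM at 8 weeks, against 183 and 212 CPM at 3 weeks, and was 91.4-fold lower (log2 fold change -6.51, SE 0.54, edgeR adjusted p 0.0032). Scnn1b, a subunit of the epithelial sodium channel, had 1.86 and 2.35 CPM at 8 weeks, against 18.3 and 19.7 CPM at 3 weeks and was 8.98-fold lower (log2 fold change -3.17, SE 0.32, edgeR adjusted p 0.0019). All 3 were called in all 8 fits that left out 1 library, with a log2 fold change of -7.40 for Muc5b without 8-week replicate 2. Of the list of mucosal defence genes, which holds Bpifb1, 2 of 13 were called higher and 1 lower (median 0.71, but -0.68 without 8-week replicate 2 and -0.07 without 3-week replicate 2), and none was called higher without either 3-week library. The genes called higher were Duoxa2, which matures a dual oxidase, with 58.1 and 44.2 CPM at 8 weeks, against 9.09 and 8.47 CPM at 3 weeks, and Lyz1, a lysozyme, with 6.01 and 5.53 CPM at 8 weeks, against 2.37 and 2.05 CPM at 3 weeks. They were higher by 5.83-fold (edgeR adjusted p 0.010) and 2.61-fold (edgeR adjusted p 0.014), and both lost their call without either 3-week library, Lyz1 also without 8-week replicate 1 (adjusted p up to 0.10 and 0.12). Lyz1 and Lyz2 are near-identical, which makes the split of their counts uncertain.

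**Figure D3:**
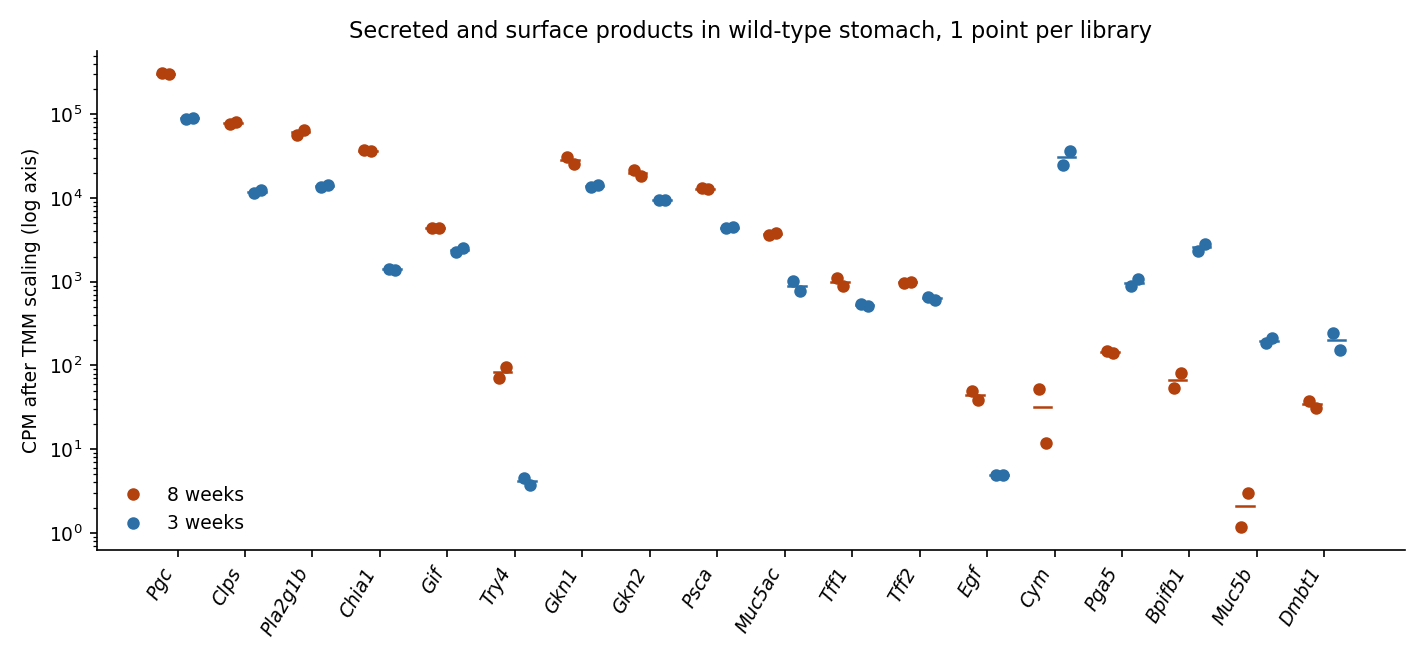
Level of 18 secreted or surface products in each wild-type library (points) and the mean of each age (bars), in CPM after TMM on a log axis, with 8 weeks to the left of 3 weeks for each gene. The first 13 genes, Pgc to Egf, have both 8-week points above both 3-week points, and the last 5, Cym to Dmbt1, have both below.

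Endocrine genes did not move as 1 group: 4 of 20 were called higher and 2 lower (median -0.20). Chga, the granin of secretory granules, had 666 and 677 CPM at 8 weeks, against 358 and 376 CPM at 3 weeks and was 1.83-fold higher (log2 fold change 0.87, SE 0.13, edgeR adjusted p 0.0078). Sst, the hormone somatostatin of D cells, had 617 and 546 CPM at 8 weeks, against 416 and 419 CPM at 3 weeks and was higher by 1.39-fold (edgeR adjusted p 0.013). Ghrl, the hormone ghrelin, had 1448 and 1359 CPM at 8 weeks, against 1045 and 1096 CPM at 3 weeks and was higher by 1.31-fold (edgeR adjusted p 0.041). Sst and Ghrl were higher under TMM, upper-quartile and median-of-ratios scaling and turned to -0.08 and -0.17 (log2) under library totals. Pyy, the gene for peptide YY, had 0.898 and 0.735 CPM at 8 weeks, against 2.91 and 2.6 CPM at 3 weeks and was lower by 3.38-fold (edgeR adjusted p 0.0099). Isl1, a transcription factor of endocrine cells, was lower by 1.67-fold (edgeR adjusted p 0.0073). In each of these genes the ages did not overlap, and each lost its call without 3-week replicate 2. Chga lost it also without 3-week replicate 1, Sst without that library or 8-week replicate 1, and Pyy without that library or 8-week replicate 2 (adjusted p up to 0.084, 0.12 and 0.094). Ghrl was called in only 2 of 8 fits that left out 1 library and lost its call without any 1 of the 4 wild-type libraries or either 3-week null library (adjusted p up to 0.27). None of the 20 was called higher without either 3-week library.

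The lists with the largest shares of members called lower held genes of the extracellular matrix. Of 20 genes of fibrillar collagens and their crosslinking, 16 were called lower and 1 higher (median -1.37), and of 20 basement membrane genes 17 were called lower (median -0.96). Among 16 genes of elastic fibres and microfibrils 12 were called lower (median -0.70), and among 16 of small proteoglycans and adhesive matrix 11 (median -0.82). None of the last 3 lists had a member called higher, and in the first it was P4ha2, a collagen prolyl hydroxylase, named after its values were seen, with 60.3 and 69.0 CPM at 8 weeks, against 43.9 and 42.6 CPM at 3 weeks. The medians stayed below 0 under every scaling tried. Without 3-week replicate 1, where fewest were called, the counts called lower were 10, 13, 7 and 5.

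Col1a1, a chain of type I collagen, had 477 and 493 CPM at 8 weeks, against 1864 and 1614 CPM at 3 weeks. It was 3.58-fold lower (log2 fold change -1.84, SE 0.10, edgeR adjusted p 0.00024), and its partner chain Col1a2 had 504 and 504 CPM at 8 weeks, against 1487 and 1344 CPM at 3 weeks and was lower by 2.81-fold (edgeR adjusted p 0.00025). Col5a1 and Col5a2, chains of the type V collagen that starts fibrils, were lower by 3.19-fold (edgeR adjusted p 0.00025) and 2.97-fold (edgeR adjusted p 0.00020). In the basement membrane, Nid2, a nidogen that links laminin to collagen, had 12 and 11.6 CPM at 8 weeks, against 42.7 and 43.6 CPM at 3 weeks and was 3.66-fold lower (log2 fold change -1.87, SE 0.10, edgeR adjusted p 0.00024). Lamb1 and Lamc1, chains shared by many laminins, were lower by 3.07-fold (edgeR adjusted p 0.00025) and 2.61-fold (edgeR adjusted p 0.00025), and Col4a5, a type IV collagen chain, by 2.72-fold (edgeR adjusted p 0.00039). Replicates of each age lay close together, and no 3-week value of these genes was as low as an 8-week value.

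Eln (ENSMUSG00000029675, chromosome 5, 134702593 to 134747323, minus strand) encodes elastin, the stretchable core of elastic fibres, and fell further than any collagen named here. It had 61 and 56.7 CPM at 8 weeks, against 468 and 413 CPM at 3 weeks, and was 7.49-fold lower (log2 fold change -2.90, SE 0.18, edgeR adjusted p 0.00039). Fbn2, the fibrillin of developing tissue, had 0.382 and 0.991 CPM at 8 weeks, against 9.36 and 7.52 CPM at 3 weeks and was 12.1-fold lower (log2 fold change -3.59, SE 0.41, edgeR adjusted p 0.0031). Fbn1, the fibrillin that predominates in adults, had 36.1 and 35 CPM at 8 weeks, against 96.9 and 78.5 CPM at 3 weeks and was lower by 2.47-fold (edgeR adjusted p 0.0032). Mfap5, a microfibril protein, was lower by 3.24-fold (edgeR adjusted p 0.0012). Postn, which encodes periostin, had 102 and 94.6 CPM at 8 weeks, against 293 and 271 CPM at 3 weeks and was lower by 2.87-fold (edgeR adjusted p 0.00025). Sparc, Thbs2 and Ogn, whose proteins bind or organise collagen, were lower by 2.21-, 2.17- and 1.86-fold (edgeR adjusted p 0.0032, 0.0015 and 0.0043). The matrix genes named here with a fold were called in all 8 fits that left out 1 library, and the log2 fold change of Fbn2 was -4.46 without 8-week replicate 2.

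Of 15 genes of matrix proteases and their inhibitors 4 were called lower and none higher (median -0.35, but -0.086 without 8-week replicate 2). Mmp2, a gelatinase, had 64.2 and 55.6 CPM at 8 weeks, against 116 and 110.0 CPM at 3 weeks and was lower by 1.89-fold (edgeR adjusted p 0.0022). Mmp14, the membrane protease that activates Mmp2, was lower by 2.46-fold (edgeR adjusted p 0.0079), and Adamts5, a proteoglycan-cleaving protease, by 2.85-fold (edgeR adjusted p 0.0028). Adamts17, another protease of that family, had 1.64 and 1.5 CPM at 8 weeks, against 13.7 and 11.7 CPM at 3 weeks and was 8.09-fold lower (log2 fold change -3.02, SE 0.26, edgeR adjusted p 0.0011). Mmp14 lost its call without 3-week replicate 1 (adjusted p 0.070), and the others named kept theirs in all 8 fits.

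Proliferation genes were lower at 8 weeks, with 11 of 20 cell cycle genes called lower, none higher and all 20 log2 fold changes below 0 (median -0.56). Top2a, the topoisomerase that untangles replicated chromosomes, had 21.1 and 26.4 CPM at 8 weeks, against 45.6 and 46.2 CPM at 3 weeks and was 1.93-fold lower (log2 fold change -0.95, SE 0.11, edgeR adjusted p 0.0033). Mcm4 and Mcm6, subunits of the replication helicase, were lower by 1.87-fold (edgeR adjusted p 0.0023) and 1.66-fold (edgeR adjusted p 0.0050). Ccnd1, the gene for the G1 regulator cyclin D1, had 53.3 and 50.2 CPM at 8 weeks, against 81.5 and 87.2 CPM at 3 weeks and was lower by 1.63-fold (edgeR adjusted p 0.0023). The count of cell cycle genes called was 6 without 3-week replicate 1 and 3 without 3-week replicate 2, and Mcm6 was then not among them (adjusted p 0.056).

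Enzymes that write and erase DNA methylation were lower as well. Of 18 genes of the epigenetic and methylation machinery 9 were called lower and none higher (median -0.50), and 5 without either 3-week library. Uhrf1, which guides maintenance methylation to newly copied DNA, had 11.1 and 11 CPM at 8 weeks, against 23.5 and 24.6 CPM at 3 weeks and was lower by 2.18-fold (edgeR adjusted p 0.00083). Dnmt3a, a de novo methyltransferase, had 37.7 and 36.5 CPM at 8 weeks, against 78 and 87.1 CPM at 3 weeks and was lower by 2.23-fold (edgeR adjusted p 0.0011). Tet1 and Tet3, which oxidise methylcytosine, were lower by 3.96-fold (edgeR adjusted p 0.0022) and 1.98-fold (edgeR adjusted p 0.0011). The ages did not overlap in these 4 genes, each called in all 8 fits that left out 1 library.

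Several genes known for fetal and early postnatal growth were lower at 8 weeks. Of 20 genes of the imprinted growth network 7 were called lower and none higher (median -0.44), and of 10 tested genes of the fetal Lin28 and let-7 programme 4 were called lower and none higher (median -0.56). The imprinted count was 2 without 8-week replicate 1 or either 3-week library, 4 without 8-week replicate 2 or either 3-week null library and 11 without either 8-week null library, whereas the Lin28 and let-7 count was 4 in all 8 fits. H19, an imprinted noncoding RNA, had 0.718 and 0.975 CPM at 8 weeks, against 14.5 and 9.3 CPM at 3 weeks and was 14-fold lower (log2 fold change -3.80, SE 0.28, edgeR adjusted p 0.00060). Igf2bp3, an RNA-binding protein of fetal tissue, had 0.135 and 0.224 CPM at 8 weeks, against 3.59 and 3.64 CPM at 3 weeks and was 19.7-fold lower (log2 fold change -4.30, SE 0.35, edgeR adjusted p 0.00083). Mycn, a growth-promoting transcription factor, had 1.64 and 1.52 CPM at 8 weeks, against 5.07 and 6.51 CPM at 3 weeks and was lower by 3.67-fold (edgeR adjusted p 0.0036), while Gpc3, a glypican that restrains growth, and Arid3a, a DNA-binding protein, were lower by 2.94-fold (edgeR adjusted p 0.0037) and 1.9-fold (edgeR adjusted p 0.0031). The imprinted genes Mest, Grb10 and Plagl1 were lower by 3.52-fold (edgeR adjusted p 0.0093), 1.89-fold (edgeR adjusted p 0.016) and 1.85-fold (edgeR adjusted p 0.0038). Mest lost its call without any 1 of the 4 wild-type libraries and Grb10 without 8-week replicate 1 or either 3-week library (adjusted p up to 0.078 and 0.11).

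In the growth hormone and IGF axis 2 of 15 genes were called higher and 5 lower (median -0.21), with 1 lower without either 3-week library, 2 without 8-week replicate 2 and 3 without either 3-week null library. Igf1, the growth factor itself, had 30.2 and 27.5 CPM at 8 weeks, against 52 and 53.8 CPM at 3 weeks and was 1.83-fold lower (log2 fold change -0.88, SE 0.08, edgeR adjusted p 0.0011). Socs2, a feedback inhibitor of the growth hormone receptor, moved the other way, with 74.6 and 67.1 CPM at 8 weeks, against 42.2 and 43.2 CPM at 3 weeks, and was 1.66-fold higher (log2 fold change 0.73, SE 0.09, edgeR adjusted p 0.0033). Of the binding proteins for IGF, Igfbp2 was higher by 1.6-fold (edgeR adjusted p 0.014) and Igfbp4 lower by 1.49-fold (edgeR adjusted p 0.0096). Both lost their call without either 3-week library, Igfbp2 also without 8-week replicate 1 (adjusted p up to 0.12 and 0.097).

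In Hedgehog signalling, a pathway between gut epithelium and mesenchyme, 9 of 14 genes were called lower, none higher, and all 14 log2 fold changes were below 0 (median -0.73). The called genes named here act in the receiving cell. Smo, the signal transducer at the membrane, had 32.5 and 29.5 CPM at 8 weeks, against 52.9 and 51.9 CPM at 3 weeks and was lower by 1.69-fold (edgeR adjusted p 0.0028). Cdon, a co-receptor, was lower by 1.62-fold (edgeR adjusted p 0.0079), Gli3, the transcription factor at the end of the pathway, by 2.35-fold (edgeR adjusted p 0.0073), and Hhip, an inhibitor induced by the pathway, by 2.08-fold (edgeR adjusted p 0.0088). Without 3-week replicate 1 only 1 of the 14 was called, Smo, and without 3-week replicate 2 only 2.

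In Wnt signalling 7 of 30 genes were called lower and none higher (median -0.57). The count was 2 without either 3-week library, 4 without either 8-week library and 12 without either 8-week null library. The ligand Wnt4 had 12.9 and 16.7 CPM at 8 weeks, against 37.9 and 40.1 CPM at 3 weeks and was 2.63-fold lower (log2 fold change -1.40, SE 0.13, edgeR adjusted p 0.0014), and the ligand Wnt5a was lower by 1.66-fold (edgeR adjusted p 0.0081). Fzd1, a receptor, was lower by 1.62-fold (edgeR adjusted p 0.0019), and Axin2, a feedback target, by 1.76-fold (edgeR adjusted p 0.013). Wnt4 and Fzd1 were called in all 8 fits that left out 1 library, while Wnt5a and Axin2 lost their call without either 3-week library, Axin2 also without 8-week replicate 2 (adjusted p up to 0.077 and 0.13).

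Of 28 BMP and TGF-beta genes 2 were called higher and 6 lower (median -0.25). None was called lower without 8-week replicate 2 or either 3-week library, and 2 without either 3-week null library. The ligands Bmp4 and Bmp5 were lower by 1.6-fold (edgeR adjusted p 0.019) and 1.79-fold (edgeR adjusted p 0.017), whereas Id2 and Id3, targets that BMP induces in many cells, were higher by 1.52-fold (edgeR adjusted p 0.0042) and 1.47-fold (edgeR adjusted p 0.016). The direction of Id3 turned under library totals. All of these calls were lost without either 3-week library. That of Id3 was lost also without either 8-week library, and those of Bmp4 and Bmp5 also without 8-week replicate 2. Of 23 FGF and EGF family genes 1 was called higher and 5 lower, with 3 lower without either 8-week library, 1 without 3-week replicate 1 and 0 without 3-week replicate 2. The gene called higher was Egf, epidermal growth factor, with 49.1 and 38.9 CPM at 8 weeks, against 4.88 and 4.9 CPM at 3 weeks, and it was 9.0-fold higher (log2 fold change 3.17, SE 0.14, edgeR adjusted p 0.00020). The feedback inhibitors Spry1 and Spry4 were lower by 1.73-fold (edgeR adjusted p 0.0088) and 2.08-fold (edgeR adjusted p 0.0041), and the ligand Fgf9 by 2.7-fold (edgeR adjusted p 0.011). Egf was called in all 8 fits that left out 1 library. Spry1, Spry4 and Fgf9 lost their call without 3-week replicate 2, Spry1 and Fgf9 also without 3-week replicate 1. Fgf9 lost it without 8-week replicate 1 too.

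Of 24 transcription factors of gastric epithelium 3 were called higher and 2 lower (median -0.09), together 20.8%, against 14.3% of all genes tested. Gata4, Foxa2 and Foxa3, factors of foregut endoderm, were higher by 1.39-fold (edgeR adjusted p 0.0094), 1.45-fold (edgeR adjusted p 0.0097) and 1.49-fold (edgeR adjusted p 0.018). Gata4 and Foxa2 turned sign under library totals. Sox2, the factor of foregut progenitors, had 8.91 and 8.29 CPM at 8 weeks, against 13 and 13.8 CPM at 3 weeks and was lower by 1.55-fold (edgeR adjusted p 0.023). All 4 lost their call without either 3-week library, Sox2 also without either 8-week library and Foxa3 also without 8-week replicate 1.

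Genes of fatty acid oxidation and ketogenesis were lower at 8 weeks. Of 22 tested, 12 were called lower and none higher (median -0.41). The count was 4 without 3-week replicate 1, 3 without 3-week replicate 2 and 7 without 8-week replicate 2. Acot1, a cytosolic acyl-CoA thioesterase, had 3.73 and 4.52 CPM at 8 weeks, against 39.1 and 47 CPM at 3 weeks and was 10.4-fold lower (log2 fold change -3.38, SE 0.25, edgeR adjusted p 0.00079). Its mitochondrial relative Acot2 had 11.4 and 7.93 CPM at 8 weeks, against 45.3 and 53.1 CPM at 3 weeks and was 5.11-fold lower (log2 fold change -2.35, SE 0.23, edgeR adjusted p 0.0019). Angptl4, a secreted inhibitor of lipoprotein lipase, had 2.69 and 3.05 CPM at 8 weeks, against 16.9 and 13.3 CPM at 3 weeks and was 5.26-fold lower (log2 fold change -2.39, SE 0.26, edgeR adjusted p 0.0023). In liver these 3 genes are known targets of the nuclear receptor PPAR-alpha, which fatty acids activate. All 3 kept their call in all 8 fits that left out 1 library. Acot1 and Acot2 are close copies on chromosome 12, so the split of reads between them is uncertain.

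Nuclear subunits of the respiratory chain were higher in the same libraries by small factors. Of 27 genes of oxidative phosphorylation 16 were called higher and none lower (median 0.34, but -0.22 under library totals, where 13 were called lower). Cox7a1 and Cox7a2, subunits of cytochrome oxidase, were higher by 1.5-fold (edgeR adjusted p 0.0047) and 1.49-fold (edgeR adjusted p 0.0073), Ndufa1 of complex I by 1.43-fold (edgeR adjusted p 0.0052), and Sdhb of complex II by 1.47-fold (edgeR adjusted p 0.0097). Ndufa1 and Sdhb turned sign under library totals. Without 3-week replicate 1 none of the 27 was called and without replicate 2 only 1, with 5 and 8 called without 8-week replicate 1 and 2, and 10 without either 3-week null library. The mitochondrial genome's own mt-Co1 had 13950 and 14330 CPM at 8 weeks, against 13580 and 14660 CPM at 3 weeks, and its ages overlapped.

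Enzymes of aldehyde, retinoid and xenobiotic metabolism had more calls higher than lower, with 11 of 31 called higher and 3 lower (median 0.55, but -0.01 under library totals). The count higher was 4 without 3-week replicate 1, 3 without 3-week replicate 2 and 5 without 8-week replicate 1. Aldh3a1, an aldehyde dehydrogenase of exposed epithelia, had 401 and 426 CPM at 8 weeks, against 145 and 151 CPM at 3 weeks and was 2.8-fold higher (log2 fold change 1.48, SE 0.10, edgeR adjusted p 0.00039). Gsta1, a glutathione transferase, had 1382 and 1231 CPM at 8 weeks, against 494 and 443 CPM at 3 weeks and was higher by 2.79-fold (edgeR adjusted p 0.00045), with counts that near-identical copies may share. Aldh1a1, which makes retinoic acid, and Adh7, the alcohol and retinol dehydrogenase of the stomach, were higher by 1.71-fold (edgeR adjusted p 0.0014) and 1.83-fold (edgeR adjusted p 0.0038). Adh7 lost its call without 3-week replicate 2 (adjusted p 0.051).

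Genes of iron handling changed in both directions. Cells take up iron through the transferrin receptor, store it in ferritin and export it through ferroportin. When iron is scarce, iron regulatory proteins bind hairpin loops in these messengers, which protects the transferrin receptor messenger from decay and blocks translation of ferritin and ferroportin. The loops are shown because the 4 genes of the metal and iron list that met the search described below were all called, in both directions. Whether the loops had a part in these changes of RNA was not tested. Each line gives 27 bases 5′ to 3′ on the transcript's strand, written as DNA (GENCODE M21 transcripts, GRCm38), with the apical loop CAGTG in capitals and the flanking bases in lower case.
Tfrc, 3′ UTR, site 1: tatcggaagCAGTGccttccataatta
Tfrc, 3′ UTR, site 2: tatcgggagCAGTGtcttccataatgc
Tfrc, 3′ UTR, site 3: tatcggagaCAGTGatctccatatgtt
Tfrc, 3′ UTR, site 4: tatcgggaaCAGTGtttcccataattt
Ftl1, 5′ UTR: ttgcttcaaCAGTGtttgaacggaaca
Fth1, 5′ UTR: ctgcttcaaCAGTGcttgaacggaacc
Slc40a1, 5′ UTR: cttcagctaCAGTGttagctaagtttg
The Tfrc loops lie on the plus strand at chr16:32631222-32631248, chr16:32631601-32631627, chr16:32631666-32631692 and chr16:32631713-32631739. Those of the others lie at chr7:45459778-45459804 (Ftl1, minus), chr19:9982735-9982761 (Fth1, plus) and chr1:45925464-45925490 (Slc40a1, minus). The search, on the transcript's own strand, asked for a C, any 5 bases, CAGTG, any 1 base and any 5 bases, with the 5 before CAGTG able to pair with the last 5, G with U allowed. It was met in 4 of the 17 listed genes and in 294 of 21877 protein-coding genes (1.34%).

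Tfrc, the transferrin receptor, had 50.5 and 72.8 CPM at 8 weeks, against 396 and 428 CPM at 3 weeks, and was 6.67-fold lower (log2 fold change -2.74, SE 0.21, edgeR adjusted p 0.00089). Ftl1, the ferritin light chain, had 1003 and 932 CPM at 8 weeks, against 421 and 394 CPM at 3 weeks, and was 2.37-fold higher (log2 fold change 1.25, SE 0.08, edgeR adjusted p 0.00044). Fth1, the ferritin heavy chain, had 2179 and 2119 CPM at 8 weeks, against 1217 and 1184 CPM at 3 weeks, and was 1.79-fold higher (log2 fold change 0.84, SE 0.09, edgeR adjusted p 0.0022). Both 8-week libraries lay below both 3-week libraries for Tfrc and above them for both ferritins, and all 3 genes were called in all 8 fits that left out 1 library. Slc40a1, the exporter ferroportin, named here for its loop after its values were seen, had 14.2 and 11.6 CPM at 8 weeks, against 21.6 and 23.9 CPM at 3 weeks and was 1.76-fold lower (log2 fold change -0.82, SE 0.15, edgeR adjusted p 0.015). Of the 17 genes of the list 4 were called higher and 2 lower, with 2 higher and 1 lower without either 3-week library. Mt1, a metallothionein that binds zinc and copper, had 601 and 460.0 CPM at 8 weeks, against 325 and 282 CPM at 3 weeks and was higher by 1.75-fold (edgeR adjusted p 0.011), a call lost without either 3-week library (adjusted p up to 0.10). Hamp2, a hepcidin gene, had 147 and 138 CPM at 8 weeks, against 17.4 and 13.9 CPM at 3 weeks and was 9.1-fold higher (log2 fold change 3.19, SE 0.12, edgeR adjusted p 0.00017). Its counts may be shared with its near copy Hamp. Erythroid transcripts were in the same libraries at summed CPM of 183 and 132 at 8 weeks, against 202 and 199 at 3 weeks, with 2 of 7 genes tested called lower, and their part in the fall of Tfrc was not tested.

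**Figure D4:**
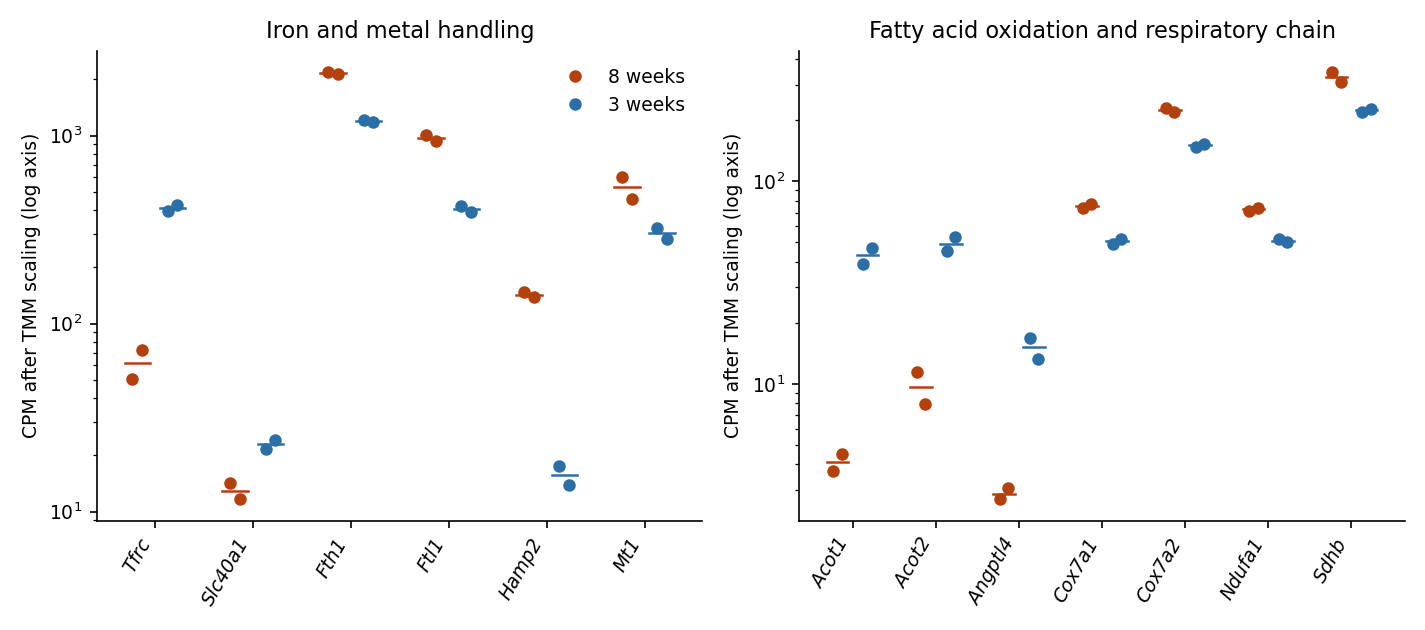
Level of iron and metal genes (left panel) and of fatty acid oxidation and respiratory chain genes (right panel) in each wild-type library (points), with the mean of each age (bars), in CPM after TMM on a log axis. For Tfrc and Slc40a1 both 8-week points lie below both 3-week points, for Fth1, Ftl1, Hamp2 and Mt1 both lie above, and Acot1, Acot2 and Angptl4 lie below while the 4 respiratory chain genes lie above.

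Some clock genes were higher at 8 weeks, with 4 of 16 circadian genes called higher and none lower, and 2 without either 3-week library. The list's median was 0.15, and turned to -0.41 under library totals and -0.01 without 8-week replicate 2. Time of day at collection did not enter the comparison, and its part in these differences was not tested. Dbp, a transcription factor driven directly by the clock, had 108 and 91.7 CPM at 8 weeks, against 31.1 and 31 CPM at 3 weeks and was 3.22-fold higher (log2 fold change 1.69, SE 0.15, edgeR adjusted p 0.0012). Ciart, a repressor of the clock, had 9.52 and 8.72 CPM at 8 weeks, against 2.64 and 1.91 CPM at 3 weeks and was 4.0-fold higher (log2 fold change 2.00, SE 0.25, edgeR adjusted p 0.0038). Nr1d2, a nuclear receptor of the negative limb, and Tef, a relative of Dbp, were higher by 1.35-fold (edgeR adjusted p 0.0097) and 1.35-fold (edgeR adjusted p 0.014), with signs that turned under library totals. Dbp and Ciart were called in all 8 fits that left out 1 library. Nr1d2 and Tef lost their call without either 3-week library, Tef also without 8-week replicate 2. The 80 bases before the start of Ciart (RefSeq, GRCm38.p6, chr3:95882229-95882308, minus strand) are shown because they hold 2 copies of CACGTG, the E-box that clock proteins bind, in capitals.
Ciart: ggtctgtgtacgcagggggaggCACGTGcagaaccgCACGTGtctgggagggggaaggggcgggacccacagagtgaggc
CACGTG, which reads the same on both strands, was found in the 250 bases before the start in 5 of 18 promoters of the 13 circadian genes in the table and in 6.02% of all promoters.

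Genes of the glucocorticoid response moved both ways, with 2 of 14 called higher and 4 lower, and 2 and 1 lower without 3-week replicate 1 and 2. Fkbp5, a chaperone that the glucocorticoid receptor induces, had 97.2 and 122 CPM at 8 weeks, against 29.8 and 28.7 CPM at 3 weeks and was 3.74-fold higher (log2 fold change 1.90, SE 0.20, edgeR adjusted p 0.0028). Hsd11b2, the enzyme that inactivates corticosterone, had 1.73 and 2.46 CPM at 8 weeks, against 8.67 and 9.2 CPM at 3 weeks and was 4.25-fold lower (log2 fold change -2.09, SE 0.20, edgeR adjusted p 0.0014). Nr3c1, the receptor, was lower by 1.35-fold (edgeR adjusted p 0.0081), and Cdkn1a, a cell cycle inhibitor, by 1.55-fold (edgeR adjusted p 0.0081). Fkbp5 and Hsd11b2 kept their call in all 8 fits that left out 1 library. Nr3c1 and Cdkn1a lost theirs without 3-week replicate 2, Nr3c1 also without 3-week replicate 1.

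None of 12 T and NK cell genes, 7 MHC class II genes or 15 interferon response genes was called. The spread was estimated together with Lgals8-null libraries, whose 8-week pair differed widely in immune lists. Their summed CPM was 1498 and 498.5 for MHC class II, 809.4 and 176.3 for interferon response and 154.8 and 68.65 for mast cell genes. An immune gene not called here may therefore still have changed in wild type. All 7 MHC class II genes had log2 fold changes above 0 (median 0.65). In 5 of them both 8-week libraries stood above both 3-week libraries, against 28% of all genes tested. Igha, the heavy chain of the mucosal antibody IgA, had 12.1 and 4.47 CPM at 8 weeks, against 0.136 and 0.0251 CPM at 3 weeks. It was 96.6-fold higher (log2 fold change 6.59, SE 1.30, edgeR adjusted p 0.036), with libraries that did not overlap but a spread at 8 weeks of more than a factor of 2, and it lost its call without 8-week replicate 1, either 3-week library or either 3-week Lgals8-null library (adjusted p up to 0.19). Its log2 fold change ran between 5.72 and 8.25 in fits that left out 1 library. The other 9 genes of the B and plasma cell list were not called. Mcpt4, a mast cell protease, had 5.3 and 4.17 CPM at 8 weeks, against 1.96 and 0.804 CPM at 3 weeks and was higher by 3.41-fold (edgeR adjusted p 0.026), with a log2 fold change of 2.55 without 3-week replicate 1. It was the only one of 9 mast cell genes called, while all 9 had log2 fold changes above 0 and libraries that did not overlap (median 1.10), against 28% of all genes tested. Mcpt4 lost its call without either 8-week library, 3-week replicate 2 or either 3-week null library (adjusted p up to 0.11). Among macrophage and granulocyte genes 2 of 13 were called higher and 3 lower, together 38.5%, against 14.3% of all genes tested. Without 3-week replicate 2 only 1 of the 13 was called, and 2 without 8-week replicate 2, 3-week replicate 1 or either 3-week null library. Mrc1, the mannose receptor of tissue macrophages, had 13 and 11.1 CPM at 8 weeks, against 27.5 and 26.2 CPM at 3 weeks and was 2.24-fold lower (log2 fold change -1.16, SE 0.10, edgeR adjusted p 0.0012), Fcgr1, an antibody receptor, was lower by 1.82-fold (edgeR adjusted p 0.027), and Lyz2 and S100a8 were higher by 2.17-fold (edgeR adjusted p 0.031) and 1.89-fold (edgeR adjusted p 0.0045). Mrc1 alone of these kept its call in all 8 fits that left out 1 library.

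Other tissue compartments differed in the share called, with 40% of 5 genes of the interstitial cells of Cajal and 25% of 12 endothelial genes. Over all genes tested it was 14.3%. No smooth muscle gene of 12 was called, nor any of 14 enteric neuron or 8 enteric glia genes. All 8 glia genes had log2 fold changes below 0 (median -0.60). In 5 of them both 8-week libraries lay below both 3-week libraries, against 31.6% of all genes tested. Of 5 genes of the interstitial cells of Cajal, the pacemakers of gut muscle, 2 were called lower: the chloride channel Ano1, with 46.7 and 31.4 CPM at 8 weeks, against 76.5 and 79 CPM at 3 weeks, and the transcription factor Etv1, with 4.29 and 3.8 CPM at 8 weeks, against 8.35 and 6.97 CPM at 3 weeks. They were lower by 2.0-fold (edgeR adjusted p 0.013) and 1.9-fold (edgeR adjusted p 0.021). All 5 genes of that list had log2 fold changes below 0 (median -0.86) and both 8-week libraries below both 3-week libraries. In endothelium 1 of 12 genes was called higher and 2 lower. Cdh5, the cadherin of endothelial junctions, and Prox1, the factor of lymphatic vessels, were lower by 1.66-fold (edgeR adjusted p 0.0079) and 2.07-fold (edgeR adjusted p 0.039). Plvap, the diaphragm protein of fenestrated capillaries, was higher by 1.45-fold (edgeR adjusted p 0.040) and turned sign under library totals. All of these calls were lost without either 3-week library. Those of Etv1 and Prox1 were lost also without either 8-week library, and that of Plvap without 8-week replicate 1. Prox1 and Plvap lost theirs without either 3-week null library too.

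Some of the largest increases have no list above. Dmbx1, a homeobox gene, had 15.8 and 13.9 CPM at 8 weeks, against 0.723 and 0.176 CPM at 3 weeks and was 32.7-fold higher (log2 fold change 5.03, SE 0.57, edgeR adjusted p 0.0042), with log2 fold changes between 4.36 and 6.39 when 1 library was left out. Piwil4, of the Piwi family, had 4.02 and 4.27 CPM at 8 weeks, against 0.384 and 0.301 CPM at 3 weeks and was higher by 12-fold (edgeR adjusted p 0.0022), C7, a complement component, by 7.87-fold (edgeR adjusted p 0.0011), and Acp7, an acid phosphatase gene, by 7.99-fold (edgeR adjusted p 0.028). Azgp1, a secreted zinc-binding glycoprotein, was higher by 14.1-fold (edgeR adjusted p 0.026), and Tnnt3, the troponin T of fast skeletal muscle, by 14.2-fold (edgeR adjusted p 0.014). Tnnt3 was the only one of 11 striated muscle genes called, at a summed CPM for that list of 17.4 and 25.3 at 8 weeks, against 15.3 and 12.9 at 3 weeks. Apoa1, an apolipoprotein, had 2333 and 2082 CPM at 8 weeks, against 853 and 808 CPM at 3 weeks and was 2.66-fold higher (log2 fold change 1.41, SE 0.16, edgeR adjusted p 0.0030). It was the only one of 12 genes of the hepatocyte list called, but all 12 had log2 fold changes above 0. In 10 of them both 8-week libraries stood above both 3-week libraries, against 28% of all genes tested. The median of the list was 1.62, and 0.53 without 8-week replicate 1. In Lgals8-null libraries it went the other way, at -1.065. Albumin (Alb) was at 103 and 26.2 CPM at 8 weeks, against 16.3 and 24.9 CPM at 3 weeks, and the summed CPM of the list was 2680 and 2331 at 8 weeks, against 975 and 940 at 3 weeks, most of it Apoa1. The part of the other hepatocyte transcripts in the change of Apoa1 was not tested. Among the largest decreases without a list, Gpa33, an antigen of gut epithelium, had 8.35 and 6.47 CPM at 8 weeks, against 57.6 and 65.4 CPM at 3 weeks and was lower by 8.32-fold (edgeR adjusted p 0.041), and Acsbg1, an acyl-CoA synthetase, had 0.651 and 2.88 CPM at 8 weeks, against 15.3 and 12.5 CPM at 3 weeks and was lower by 7.74-fold (edgeR adjusted p 0.042). Azgp1, Acp7, Tnnt3, Gpa33 and Acsbg1 lost their call in 3 or more of 8 fits that left out 1 library. In those fits the log2 fold change of Acp7 ran between 2.29 and 4.44 and that of Acsbg1 between -4.41 and -2.27.

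Galectin genes bear on the question of the series. Lgals8 itself had 37.6 and 36.4 CPM at 8 weeks, against 34.6 and 33.9 CPM at 3 weeks, a log2 fold change of 0.11 (SE 0.35, adjusted p 0.89) that did not pass and that was negative under library totals. In Lgals8-null libraries it had 1.94 and 4.16 CPM at 8 weeks, against 1.7 and 2.78 CPM at 3 weeks, below every wild-type library. The SE and adjusted p rest on a spread shared with these null libraries, so they do not measure the scatter of Lgals8 in wild type alone. Of 9 galectin genes tested 1 was called higher and 2 lower. Lgals2, a prototype galectin with 1 carbohydrate-binding domain, had 874 and 778 CPM at 8 weeks, against 362 and 334 CPM at 3 weeks and was 2.37-fold higher (log2 fold change 1.25, SE 0.10, edgeR adjusted p 0.00083). Lgals4, a tandem-repeat galectin as galectin-8 is, had 219 and 197 CPM at 8 weeks, against 305 and 330.5 CPM at 3 weeks and was lower by 1.53-fold (edgeR adjusted p 0.019), and Lgals3 was lower by 1.61-fold (edgeR adjusted p 0.043). Lgals2 was called in all 8 fits that left out 1 library, and the other 2 were not called without any 1 of the 4 wild-type libraries.

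The same ages were compared in the 4 Lgals8-null libraries. The fold changes of the genotypes came from different libraries, but the spread of each gene was estimated from the libraries of both genotypes together. A gene with a small shared spread was more easily called in both comparisons, so the overlap of calls is no separate check. There 828 of 19647 genes were called higher (4.21%) and 1287 lower (6.55%). Of the 1359 genes called higher in wild type, 1286 (94.6%) were also higher in the null libraries and 540 were called higher there. Of the 1455 called lower in wild type, 1423 (97.8%) were also lower and 828 were called lower. Over all genes tested 69.0% had the same sign in both genotypes. The 1368 genes called in both in the same direction were 48.6% of the wild-type calls and 64.7% of the null calls. Across the 2814 genes called in wild type the log2 fold changes of the genotypes had a Pearson r of 0.88, given as a description across genes, which are not replicates.

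The values of a few genes are set side by side here. Eln had log2 fold changes of -2.90 in wild type and -3.06 in null libraries, and Col1a1 -1.84 and -1.84. Chia1 had 4.72 and 4.68, Pgc 1.78 and 1.04, Clps 2.73 and 1.92, Muc5b -6.51 and -4.55, Tfrc -2.74 and -1.68. Tested as an interaction, the age effects of the genotypes differed past the threshold for 0 of 19647 genes in edgeR, with 1727 (8.79%) at an unadjusted p under 0.05 and a smallest adjusted p of 0.53. limma voom also called 0, DESeq2 called 175, and edgeR called 419 without 8-week null replicate 1 and 121 without 8-week null replicate 2. A difference in size between the genotypes was therefore not shown for the genes named here, nor was its absence.

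**Figure D5:**
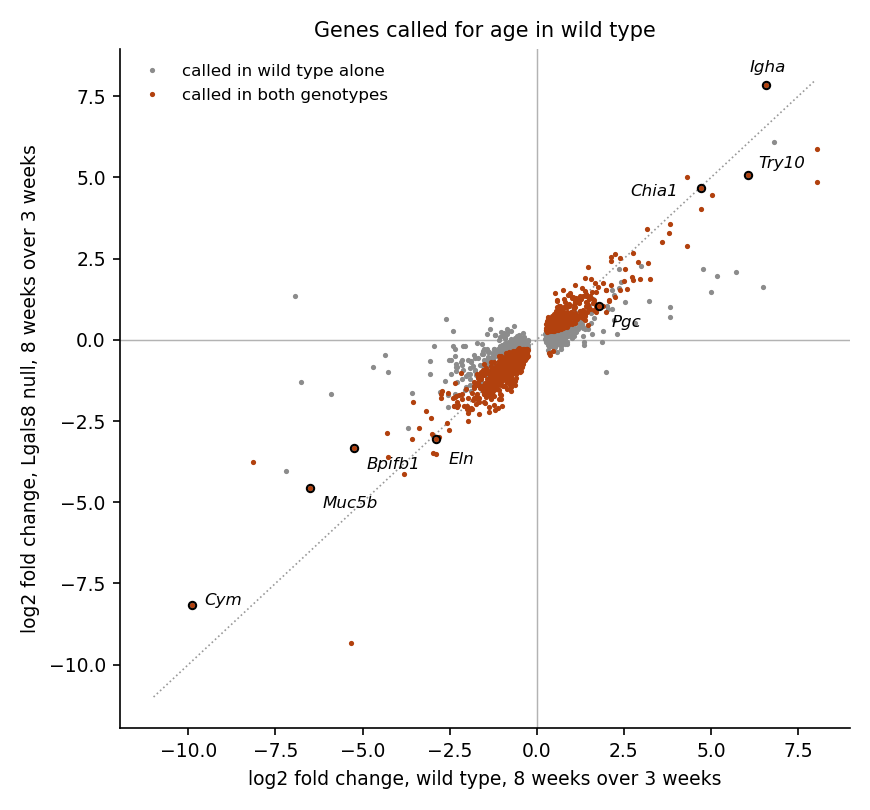
Log2 fold change of 8 weeks over 3 weeks in wild type (x axis) and in Lgals8-null libraries (y axis) for the 2814 genes called in wild type, 1 point per gene, with genes also called in null libraries in orange and a dotted line of equal change. Most points lie in the lower left and upper right, where 1423 and 1286 genes have the same sign in both genotypes.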

How the data were processed

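Stomach RNA of 8 mouse libraries in 4 groups of 2 was sequenced. Per the labels' protocols, RNA was column-purified, selected for poly-A, copied from random hexamers and read from both ends. Per the submitters' processing notes, bcl2fastq, STAR 2.7.9a, Subread, featureCounts 2.0.3 and GRCm38 were used, and the authors deposited raw counts per gene with no normalization. Which annotation release, strand option and rule for reads shared between genes were applied is not given in the sources used here, and counts of overlapping, antisense and near-identical genes are uncertain for that reason.

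The deposited table had 40757 lines for 40481 gene IDs, and 276 repeated lines were left out. Spreadsheet software had turned 26 symbols into dates, which were restored from GENCODE M21, where 40340 IDs were found. In R 4.3.3, edgeR 4.0.16 fitted 1 mean per group over all 8 libraries (filterByExpr, TMM, robust quasi-likelihood, 4 residual degrees of freedom, common biological coefficient of variation 0.275). Genes with a Benjamini-Hochberg adjusted p under 0.05 were called. All samples were grouped by genotype and age from the labels. The test was run on simulated data for 8 weeks against 3 weeks in wild type. Of 50 genes changed at each size among 19264, it found 22% at 1.5-fold, 62% at 2-fold, 90% at 4-fold and 90% at 8-fold, with 6 false calls among 138. Far fewer genes were changed there than were called in the real libraries, so these shares need not carry over.

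Genes were named by rule: up to 4 called members per list, the 12 largest changes in each direction above a mean log2 CPM of 1, the 10 most abundant genes of each age and a few fixed genes. A gene that this rule gave is not reported here. The members and lists were chosen with earlier results of these data known. Alternatives were other scalings, filters, DESeq2 1.42.0, limma 3.58.1 (voom), wild-type libraries alone, a replicate block and each library left out. Promoters came from RefSeq and transcripts from GENCODE M21.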

Additional observations from a re-analysis of the deposited data

Results flagged for a closer look

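In 3 genes the ages moved in opposite directions in the 2 genotypes, with each genotype called on its own (edgeR adjusted p under 0.05). Sst, the somatostatin gene, had 617 and 546 CPM at 8 weeks, against 416 and 419 CPM at 3 weeks in wild type. In Lgals8-null libraries it had 251 and 273 CPM at 8 weeks, against 325 and 342 CPM at 3 weeks. Ghrl, the ghrelin gene, had 1448 and 1359 CPM at 8 weeks, against 1045 and 1096 CPM at 3 weeks in wild type and 668 and 795 CPM at 8 weeks, against 1013 and 1030 CPM at 3 weeks in null libraries. Mustn1, a small nuclear protein of muscle and skeleton, had 30.2 and 31.0 CPM at 8 weeks, against 24.5 and 23.5 CPM at 3 weeks in wild type, and 23.5 and 22.1 CPM at 8 weeks, against 31.4 and 28.4 CPM at 3 weeks in null libraries. In all 3 genes 8 weeks was higher in wild type and lower in null libraries, with no overlap of ages in either genotype. The log2 fold change of wild type minus that of null libraries was 0.83 for Sst, 0.74 for Mustn1 and 0.87 for Ghrl. Tested as an interaction over all genes, none of these differences passed, since the smallest edgeR adjusted p of any gene was 0.53. In wild type Ghrl was called in only 2 of 8 fits that left out 1 library (adjusted p up to 0.27) and Sst in 5 (up to 0.12). Under library totals Sst and Ghrl were lower at 8 weeks in wild type too, with log2 fold changes of -0.08 and -0.17.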

How the results depend on the processing

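The number of genes called depended most on scaling and on the 3-week libraries. Under library totals 9598 genes were called in wild type, 185 higher and 9413 lower, and 5238 in null libraries. With totals that left out the 10 most abundant genes, 854 were higher and 2210 lower. DESeq2 called 2051 higher and 1850 lower in wild type, 3766 in null libraries and 175 for the difference of the genotypes. Upper-quartile scaling gave 1663 higher and 1339 lower. With 1 library left out, wild-type calls ran from 382 to 4123, higher calls from 157 to 1930, lower calls from 225 to 2343, null calls from 268 to 3008 and calls for the difference from 0 to 419. Among lists with several calls, all of them higher, median log2 fold changes turned under library totals to -0.20 (parietal cell), -0.064 (surface mucous cell), -0.41 (circadian clock), -0.22 (oxidative phosphorylation) and -0.20 (secretory pathway). With 1 library left out, the clock median ran from -0.014 (without 8-week wild-type replicate 2) to 0.294 (without 3-week wild-type replicate 2). Under library totals single genes named by rule turned to -0.20 (Atp4a), -0.082 (Sst), -0.17 (Ghrl), -0.45 (Lgals8), -0.084 (Slc26a9), -0.043 (Kcne2), -0.025 (Plvap), -0.009 (Id3), -0.083 (Gata4), -0.026 (Foxa2), -0.13 (Nr1d2), -0.13 (Tef), -0.045 (Ndufa1) and -0.011 (Sdhb), and Lgals8 to -0.001 with the 10 genes left out of the totals. Of 142 called genes named, 142 kept their call under median-of-ratios and upper-quartile scaling, and 117 under library totals. Labels give the groups the same replicate numbers, but same-numbered wild-type libraries did not deviate together (r -0.46) nor did null libraries (r 0.009), so the numbers were not taken as pairs. A replicate block gave 2463 wild-type calls (1187 higher, 1276 lower), 1715 null calls and 0 for the difference, with 136 of the 142 named genes still called. The crossed pairing, added after seeing the data, gave 2342 wild-type calls and 1602 null calls. With 2 libraries a group an exact test of 1 gene cannot go below p = 0.33, so every call rests on the spread shared across genes. In simulated data a gene changed by 1.5-fold was mostly missed. That simulation had 138 calls, against 2814 in the real wild-type libraries, so its shares need not hold for them.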

Other observations

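In the lists given here, the share called in wild type ran from 8.33% (cholesterol and lipid synthesis) to 20% (secretory pathway and ER stress). Over all genes tested it was 14.3%. Of 25 genes of the secretory pathway and ER stress 5 were called higher and none lower (median 0.36, but -0.20 under library totals), with 12 called without 8-week replicate 1, 3 without 8-week replicate 2 and 1 and 2 without 3-week replicate 1 and 2. Among them Pdia2, a protein disulfide isomerase, had 27.8 and 27.8 CPM at 8 weeks, against 10.5 and 10.04 CPM at 3 weeks. Ddit3, a transcription factor of the stress response, had 12.6 and 18.2 CPM at 8 weeks, against 8.75 and 9.92 CPM at 3 weeks. Of 24 genes of cholesterol and lipid synthesis Fdps was called higher and Elovl6 lower, and of 20 claudin and tight junction genes Cldn23 and Tjp1 were called lower. Cldn23, a claudin, had 1.35 and 1.23 CPM at 8 weeks, against 6.23 and 5.12 CPM at 3 weeks. Of 16 immediate early and heat shock genes Junb was called higher and Egr1 lower. These 8 genes were named after their values were seen. The libraries of the ages did not overlap in the 3 genes whose values are given, and 6.92% and 7.41% of all genes were called higher and lower.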
